A study of Mus musculus with 13 samples.

Results

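In control 4T1 cells, 263 of 9555 H3K27me3 peaks were at least 100 kb wide, and these very wide domains are described here. Members were chosen by peak width in the control library alone, so their width is not a finding. They made up 2.75% of the peaks, 39.4 of 221 Mb of peak length (17.8%) and 23.9% of the reads in peaks. 4T1 is a metastatic line from a spontaneous mammary tumor of a BALB/cJ mouse. The study asked what the nuclear pore protein NUP210 does at chromatin of these cells and used ChIP-seq, in which an antibody pulls down DNA fragments bound to a protein or histone mark. Both kinds of cells compared were grown in serum-containing DMEM. The sg-Ctrl cells carried a non-targeting guide RNA. The Nup210 KO cells were 1 CRISPR/Cas9 clone, N13, made with a guide to an early exon of Nup210, so a feature of the clone and an effect of the gene cannot be told apart. H3K27me3 and H3K4me3 were profiled in both, whereas NUP210 and the antibody to nuclear pore complex (NPC) proteins were profiled in sg-Ctrl cells, with 1 library each. No test over replicates was therefore possible, and all intervals are 95% intervals of counting error over domains or genes.

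H3K27me3, trimethylated lysine 27 of histone H3, is deposited by the Polycomb repressive complex PRC2 and marks genes that are kept silent in a cell type. It can cover a promoter or spread over long stretches of chromatin that hold silent gene clusters or long genes. H3K4me3 marks the promoters of active or poised genes, and a promoter with both marks is called bivalent. Nucleoporins, the subunits of the nuclear pore, can touch chromatin at the nuclear envelope, where much silent chromatin lies.

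The lists hold only peaks that met a gene body or, for H3K4me3, lay within 4 kb of a transcription start site (TSS). A peak in a stretch without a listed gene is therefore unseen, and 62.8% of the domain length lay in listed gene bodies. The listed bodies include microRNA entries as long as a domain, such as Mir669e over 115 kb. Such entries add to this share and to the domains counted below as inside 1 gene. Set against the same IgG control, the depth of the KO library exceeded that of sg-Ctrl by a factor of 3.16 for H3K27me3 and 1.27 for H3K4me3. Reads were divided by this library ratio and by length, and are given below as scaled reads per kb. The lists do not check the loss of Nup210 itself, since a guide-made lesion leaves the promoter in place: its TSS had an H3K4me3 peak of 885 reads in sg-Ctrl and 913 in KO. Of 10 mammary epithelial marker genes 9 had an H3K4me3 peak in both libraries, against none of 4 leukocyte, 3 endothelial and 3 neural markers and 2 of 4 fibroblast markers. Ptprc, the pan-leukocyte phosphatase CD45, lay in a domain of 186 kb.

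Promoters in the domains differed in sequence and in H3K4me3, and 6 are shown because the results below turn on their genes. Each is the 250 bases upstream of the RefSeq start (build GRCm38.p6, 5′ to 3′ on the gene's strand), in lower case with every CG dinucleotide in capitals. Mga had the most H3K4me3 reads in sg-Ctrl of any start site in a domain, Aldh1a1 followed it there, and Grb14 had the largest KO to sg-Ctrl ratio. Tfec lies in the widest domain, Alb in a cluster of liver genes and Sele in a domain with no KO peak; these 3 had no H3K4me3 peak in either library.
Mga, chr2:119896978-119897227 (+ strand): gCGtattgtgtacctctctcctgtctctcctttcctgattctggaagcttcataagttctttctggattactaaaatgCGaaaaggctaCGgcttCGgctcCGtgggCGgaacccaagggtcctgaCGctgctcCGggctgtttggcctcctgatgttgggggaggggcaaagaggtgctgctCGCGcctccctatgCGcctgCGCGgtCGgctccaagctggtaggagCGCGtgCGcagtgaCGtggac
Aldh1a1, chr19:20601718-20601967 (+ strand): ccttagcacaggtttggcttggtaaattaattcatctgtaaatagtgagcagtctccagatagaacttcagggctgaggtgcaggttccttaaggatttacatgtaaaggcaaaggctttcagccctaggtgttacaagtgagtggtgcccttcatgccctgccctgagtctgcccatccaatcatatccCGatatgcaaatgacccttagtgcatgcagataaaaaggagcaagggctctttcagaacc
Grb14, chr2:65022767-65023016 (- strand): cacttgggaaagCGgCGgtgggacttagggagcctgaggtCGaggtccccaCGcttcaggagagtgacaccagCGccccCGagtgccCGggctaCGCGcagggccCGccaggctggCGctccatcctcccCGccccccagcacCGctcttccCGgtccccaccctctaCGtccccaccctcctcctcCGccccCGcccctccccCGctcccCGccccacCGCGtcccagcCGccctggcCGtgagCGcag
Tfec, chr6:16898442-16898691 (- strand): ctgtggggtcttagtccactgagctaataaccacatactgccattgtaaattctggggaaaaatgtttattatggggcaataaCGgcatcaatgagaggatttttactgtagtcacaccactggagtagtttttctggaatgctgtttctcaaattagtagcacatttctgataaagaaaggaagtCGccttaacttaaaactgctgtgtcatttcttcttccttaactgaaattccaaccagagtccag
Alb, chr5:90460620-90460869 (+ strand): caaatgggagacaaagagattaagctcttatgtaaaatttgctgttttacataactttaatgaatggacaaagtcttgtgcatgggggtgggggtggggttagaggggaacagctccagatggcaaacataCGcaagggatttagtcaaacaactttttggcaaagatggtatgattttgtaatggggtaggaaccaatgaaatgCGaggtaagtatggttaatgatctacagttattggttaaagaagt
Sele, chr1:164047984-164048233 (+ strand): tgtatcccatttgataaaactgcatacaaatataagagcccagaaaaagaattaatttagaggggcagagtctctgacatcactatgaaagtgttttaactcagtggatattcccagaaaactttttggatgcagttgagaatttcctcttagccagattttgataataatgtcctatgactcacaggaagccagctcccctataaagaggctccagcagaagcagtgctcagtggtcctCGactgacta
The Grb14 window holds 24 CG and that of Mga 18, whereas Tfec and Alb hold 2 each and Aldh1a1 and Sele 1 each. Over the 32851 promoters of the RefSeq table the median was 6, and 37.8% held at least 10. Aldh1a1 thus carried H3K4me3 with few CG. A comparison of CG content over all start sites in domains was void, because 205 of 292 genes (70.2%) matched a RefSeq start within 50 bp.

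The widest domain spanned 395 kb at Tfec, which encodes a transcription factor of the MiT family (chr6:16632001-17027000). It held 24894 H3K27me3 reads at 4.37-fold over IgG, and a KO peak of 420 kb covered 99.7% of it. The next, of 373 kb, met only the unnamed locus 9430019J16Rik and was covered to 71.6%. Domains of 308 kb each lay at Stxbp5l, a syntaxin-binding protein gene (chr16:37104001-37412000), and at Kcnd2, a voltage-gated potassium channel gene (chr6:21458001-21766000). The Stxbp5l domain had the most reads of all members, 27618, and its KO peak of 309 kb reached 1 kb beyond its start. The Kcnd2 domain had the same start and end in KO. The domain of Icos and Ctla4, costimulatory receptor genes of T cells, spanned 285 kb and lay in a KO peak of 337 kb.

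The other domains among the 10 widest were 258 to 267 kb. Rims2, a gene of the synaptic active zone, lay across a whole domain of 267 kb, and the KO peak there was 328 kb. The domain of Nfia, a transcription factor gene, was also 267 kb and met 4 listed KO peaks that covered 63.3%. At Dkk1, which encodes a Wnt antagonist, a domain of 262 kb lay in a KO peak of 353 kb. The domain of Calcrl and Tfpi, a receptor and a coagulation inhibitor gene, was covered to 95.7%. That of Efcab3, in contrast, was covered to 17.8%, although 76.3% of its 25.3 kb of gene body was covered. Of these 10 domains 5 were covered whole by KO peaks, those of Stxbp5l, Kcnd2, Icos with Ctla4, Rims2 and Dkk1. The domains of 9430019J16Rik, Nfia and Efcab3 were covered to 71.6% or less. Gene body made up 8.12 kb of the 9430019J16Rik domain, covered to 100%, and 121 kb of the Nfia domain, covered to 86.8%. A separate KO peak in the rest of these 3 domains would not be listed, so the uncovered length is not a measure of loss.

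At the width limit, 4 domains measured exactly 100 kb and 9 peaks just outside it measured 99 kb. Galnt5 with Ermn, Slc26a7, Trpm3 and Zfp385b were inside, with 2914 to 3767 reads. Among those outside were the peaks at Cecr2 with 5176 reads and at Pax3 with 3456. Those just outside held 3107 to 5176 reads, a range that overlaps that of the members just inside.

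Over all domains the median width was 135 kb and the median read number 5971, with a range of 2757 to 27618. Fold over IgG had a median of 3.44 and ranged from 1.06 to 7.57. The highest folds were at Dock3 (7.57), a guanine nucleotide exchange factor gene, Syn2 (7.46), a synaptic vesicle gene, Cpeb1 (6.88), Pde3b with Cyp2r1 (6.76) and Mc4r with Gm19784 (6.62). In KO the fold over their overlapping peaks was 6.78, 5.21, 5.66, 4.87 and 4.17 in that order. Each of the 5 was lower in KO than in sg-Ctrl, but these are the members with the highest control values, so a lower second value is no finding. A further 12 domains were under 2-fold, and 4 of these lay in Cntn5, a neural adhesion gene, at 1.06- to 1.84-fold. Median scaled reads per kb were 50.8 in the domains, 38.0 in peaks of 30 to 99 kb and 30.9 in narrower peaks, measured in the library that chose them.

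The domains met 388 of the 4971 genes with an H3K27me3 peak in sg-Ctrl (7.81%). These genes were long, with a median of 42.1 kb against 23.9 kb for genes with H3K27me3 but no domain, and 35.3% against 20.03% exceeded 100 kb. A long gene has more room to meet a wide peak. Of the domains 181 met 1 gene and 66 lay inside 1 gene, whereas 25 met 3 genes or more. Cntn5, Pard3b and Prkg1 each met 4 domains, and Hdac9 and Kcnq3 met 3.

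Several of the 25 domains with 3 genes or more held members of 1 gene family, named here after their genes were seen, whereas others, such as that of Adamts12, Slc45a2 and Amacr, did not. The densest held 16 genes in 250 kb and joined Vnn1 to 15 trace amine-associated receptor genes, most of which encode odorant receptors of the nose. Another, of 166 kb with 9 genes, held seminal vesicle secretory and Wfdc genes. Family members in other domains were trypsinogens (Prss1), lectin receptors of myeloid cells (Clec9a, Clec12a), the Ms4a family, vomeronasal receptors (Vmn1r50 to Vmn1r52) and the albumin family (Afp, Alb, Afm). The albumin family domain spanned 160 kb with 10743 reads at 4.84-fold, and 97.5% of it was covered in KO. The 250 kb receptor domain was covered to 87.2% by 3 KO peaks.

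Gene lists were counted beside the 7.81% of all H3K27me3 genes. Olfactory, vomeronasal and taste receptors met a domain in 45 of 689 cases (6.53%), all in 11 domains, so these genes are not independent of each other. Genes of serpins, cytochromes P450 and UDP-glucuronosyltransferases met one in 9 of 72 cases (12.5%, 6.72 to 22.1). For synaptic adhesion the count was 4 of 34, Cntn5, Csmd3 and Magi2 among them, and for voltage-gated channels 5 of 53 (Kcnb2, Kcnd2, Kcnq3, Scn1a, Scn2a1). Glutamate and GABA receptors gave 2 of 28 (Grik1, Grm8) and axon guidance 2 of 25 (Sema3d, Sema5a). Homeobox, forkhead, Sox, Gata, T-box and Pax factors gave 3 of 51 (Foxr2, Sox6, Tbx20) and zinc finger genes 1 of 44 (Zfp385b). Cadherins with protocadherins gave 0 of 65 and keratins with other epithelial genes 0 of 14. The cadherin and protocadherin list at 0 of 65 allows a share of up to 5.58% and the epithelial list of up to 21.5%. The 95% intervals of all lists but that of cadherins with protocadherins contained 7.81%. These intervals treat genes as independent. Neighboring genes of a family can share a peak, and the 9 genes of the serpin list lay in 5 domains. The intervals can therefore be too narrow, and they single out no list.

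Domains were unevenly spread over chromosomes. Chromosome 19 had 26 domains among 364 peaks (7.14%), and they held 30.5% of its H3K27me3 length. Chromosome 15 had 22 of 360 (6.11%), with 29.99% of the length. Chromosomes 1 and 2 had the most, 33 and 29. Chromosome 11 and the X chromosome had 3 each among 435 and 432 peaks. IgG reads per kb over the domains also differed, with a median of 23.4 on chromosome 15 and 9.71 on the X chromosome, and the part of copy number or mappability in these counts was not tested.

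In KO cells most domains were kept. A KO peak overlapped 256 of 263 (97.3%), and KO peaks covered 89.2% of the domain length and 92.8% of its gene-body part. The median domain was covered to 99.5%. The same length share was 85.9% for sg-Ctrl peaks of 30 to 99 kb and 73.2% for narrower ones. Of the domains 205 (77.9%) were covered to at least 90%, which held for 62.6% of all sg-Ctrl peaks. The 7 domains with no KO peak (2.66%) compare with 18.5% of all sg-Ctrl peaks. A wide peak offers more room for an overlap, and the KO library was deeper, so the part of width and depth in these shares was not tested.

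**Figure D1:**
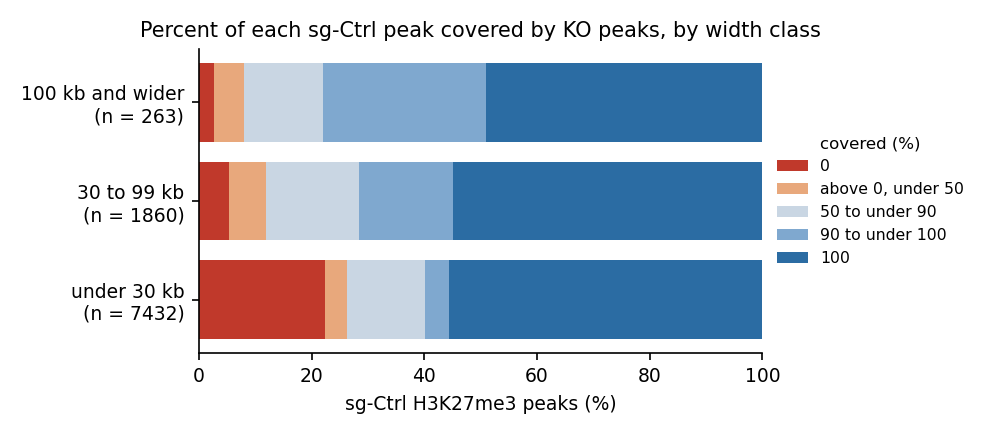
Share of sg-Ctrl H3K27me3 peaks (horizontal axis, %) by how much of each peak KO peaks covered (colors, %), for 263 domains, 1860 peaks of 30 to 99 kb and 7432 narrower peaks. Without any KO peak were 2.66%, 5.27% and 22.4% of the 3 classes, while 49.0%, 54.8% and 55.5% were covered whole.

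The domain edges moved in both directions. Of the 256 domains with a KO peak 202 had 1 such peak and 54 had several, up to 6 at Lama2, a laminin gene, and at Zfp385b. The widest KO peak was wider than the domain in 129 cases, narrower in 96 and of equal width in 31, and 28 domains had an identical start and end. The KO start lay within 2 kb of the domain start in 136 domains and the KO end in 145, and both did in 80. The KO peak reached over 10 kb beyond the start in 62 and beyond the end in 62, and stopped over 10 kb short of them in 32 and 23. The widest KO peak, of 570 kb at Hmcn1, reached 389 kb beyond the start of a 187 kb domain. At Kirrel3, an adhesion gene, 1 KO peak of 270 kb overlapped neighboring domains of 138 and 137 kb and covered them to 99.3% and 94.2%. In all, 6 KO peaks overlapped 2 domains each.

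**Figure D2:**
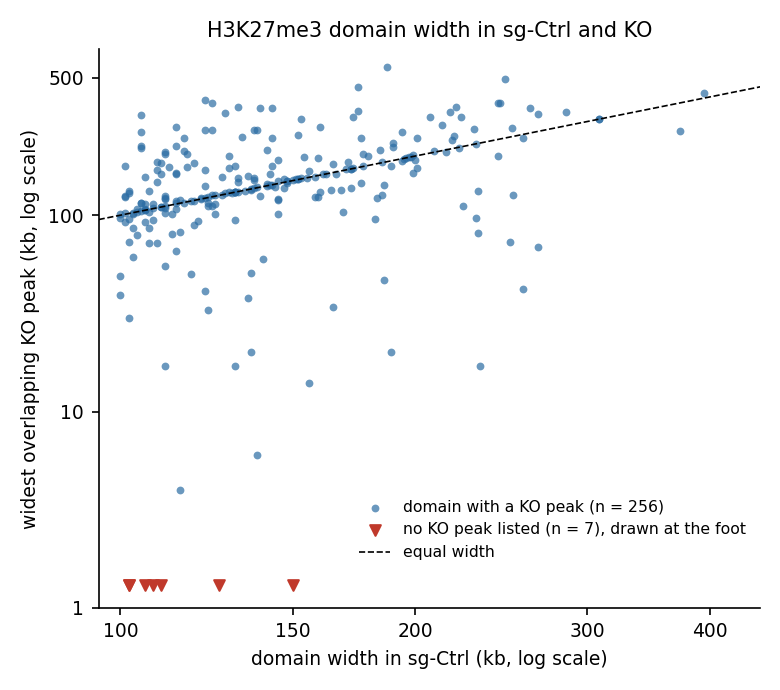
Width of each sg-Ctrl domain (horizontal axis, kb, log scale) against the widest KO H3K27me3 peak that overlaps it (vertical axis, kb, log scale), with red triangles at the foot for the 7 domains without a KO peak and a dashed line at equal width. Points lie on both sides of the line, with 129 above and 96 below among the 256 with a KO peak.

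The mirror view gave a lower share. KO cells had 495 H3K27me3 peaks of at least 100 kb (80.2 Mb), and sg-Ctrl peaks covered 72.3% of their length. Of these, 207 met a sg-Ctrl domain and 12 met no sg-Ctrl peak. The deeper KO library and a gain of width cannot be told apart in this count.

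The 7 domains without a KO peak held 3096 to 5786 sg-Ctrl reads. The widest spanned 150 kb at Plcl1 (chr1:55620001-55770000), a phospholipase C-like gene, with 4737 reads at 2.57-fold and 134 kb in gene body. Domains in Myo16, an unconventional myosin gene (106 kb, 3283 reads), and Pappa, a metalloprotease gene (102 kb, 3096 reads), lay wholly in gene body. Camk4, a calcium-dependent kinase gene, had a domain of 102 kb with 5786 reads at 6.21-fold, and a neighboring Camk4 domain of 131 kb was covered to 31.3%. The domain that holds Sele, the E-selectin gene, had 3225 reads and 28.2 kb in gene body. Those at Gm4861 and Prlhr had only 2.58 and 0.268 kb in gene body, so a KO peak beside these genes would not be listed. In 5 of the 7, then, more than 25 kb could have shown a listed KO peak.

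Below 20% coverage lay 15 domains, these 7 included. That of Trim9, a neuronal ubiquitin ligase gene, and the microRNA gene Mir4660 was 156 kb and was covered to 8.97%. All of it lay in listed gene bodies, but not in 1 gene. The body listed for Mir4660 overlapped it at least as much as that of Trim9, so the gene-body length there may be overstated. The domain held 5606 sg-Ctrl reads over its whole length, whereas the 1325 KO reads are those of a 14 kb KO peak alone. KO reads outside listed peaks are unseen. Scaled reads per kb were 42.4 over the domain in sg-Ctrl and 35.4 over that peak in KO. The domain of Nrep and Gm10549 (233 kb) was covered to 7.30% and that of Slc39a8, a zinc transporter gene (115 kb), to 3.48%. Nrg4, an EGF-family ligand gene, lay in a domain covered to 15.3%. At Il6, the interleukin-6 gene, 4.35% of 138 kb was covered, but only 6.81 kb was gene body and 43.6% of that was covered. Counted in gene body alone, 11 domains were covered to under 20%.

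Within regions that joined overlapping peaks of both libraries, 250 held a domain and a KO peak. Their median log2 ratio of scaled H3K27me3 reads per kb, KO to sg-Ctrl, was -0.11 (-0.17 to -0.05), against 0.02 over all 6247 regions. Both libraries were divided by the length of the joined region. The ratio is therefore that of the scaled reads in listed peaks, and a stretch with no listed peak adds no reads. Of the 250 regions 36 were at least 1.5-fold lower (14.4%, against 18.2% of all regions) and 22 at least 1.5-fold higher (8.80%, against 21.2%). Both shares were thus below those of all regions. Total covered length was 42.6 Mb in each library, a ratio of 0.999, which is not compared with narrower classes because sg-Ctrl width set both the classes and the divisor. Per kb of their own peaks the domain regions had 54.3 scaled reads in sg-Ctrl and 51.3 in KO. The direction of the ratio rested on the scaling: with libraries scaled by their 832 identical peaks it was 0.03, against 0.16 over all regions. It also rested on which library chose the members, since regions with a KO peak of at least 100 kb had a median of 0.35.

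The ratio of the domain regions varied by chromosome. Their median was lowest on chromosome 11 (-1.68, 3 regions), chromosome 4 (-1.03, 4 regions) and chromosome 18 (-0.72, 7 regions), and highest on chromosome 8 (0.44, 15 regions) and chromosome 16 (0.38, 14 regions). Over all regions of these chromosomes the medians were -0.06, -0.62, -0.54, 0.47 and 0.31 in that order. On 18 of 20 chromosomes the domain regions had a lower median than all regions of the same chromosome. The members were chosen in the sg-Ctrl library, which is the divisor of this ratio, so that count is no finding. KO peaks covered 46.4% of the domain length on chromosome 11, 52.4% on chromosome 4 and 61.4% on chromosome 18, against 80.7% or more on each other chromosome. Chromosome 11 had 3 domains. Those of Efcab3 and Gm12130 were covered to 17.8% and 42.9% of length, but to 76.3% and 100% of their gene-body part. The third, of 2810471M01Rik and Mir217, was covered whole. A separate KO peak outside the gene bodies would not be listed. Without chromosomes 4, 5 and 18 the coverage was 91.0% and the median ratio -0.07, an alternative chosen after the data were seen. A change of copy number in the clone, a change of the mark and KO peaks that are not listed cannot be told apart in these values.

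**Figure D3:**
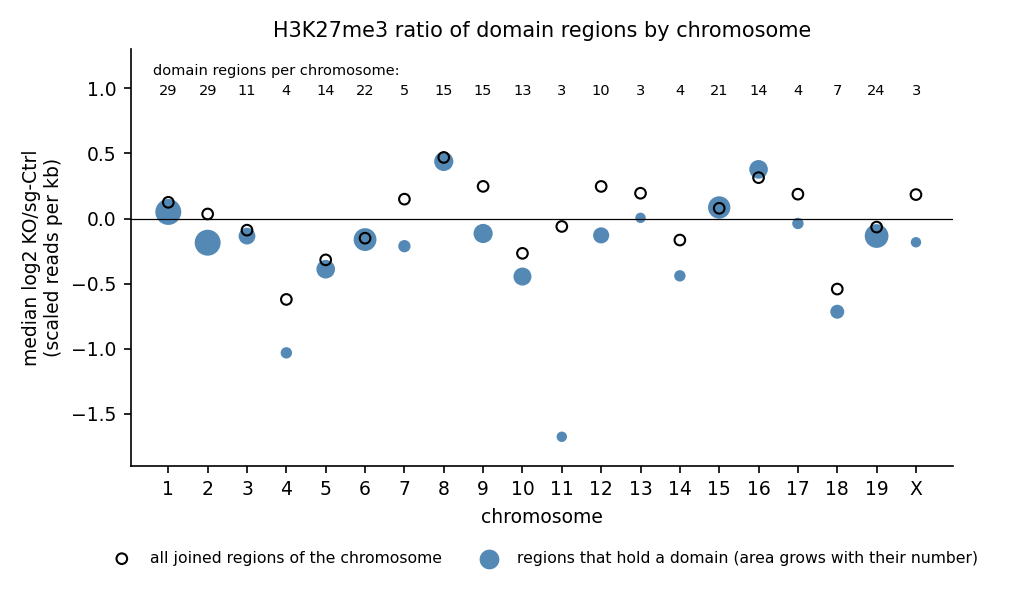
Median log2 ratio of scaled H3K27me3 reads per kb, KO to sg-Ctrl (vertical axis), for regions that hold a domain (filled, area by number) and all joined regions (open) on each chromosome. Filled points lie below open ones on 18 of 20 chromosomes, which is no finding because the domains were chosen in sg-Ctrl, the divisor. Both are lowest or near lowest on chromosomes 4 and 18. The domain point of chromosome 11 stands on 3 regions.

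NUP210 peaks overlapped 226 domains (85.9%), compared with 41.8% of all sg-Ctrl H3K27me3 peaks, which are mostly far shorter. They covered 39.3% of the domain length, 32.2% of that of peaks of 30 to 99 kb and 29.9% of that of narrower peaks. In gene bodies the shares were 52.1%, 39.1% and 31.5%, against 24.7% of all listed gene bodies. NPC peaks gave like values, with 216 domains overlapped (82.1%, against 36.6% of all peaks), 37.0% of the length and 49.8% of the gene-body part. The covered share of a domain by NUP210 and by NPC went together over the 263 domains (Pearson r = 0.86, Spearman rho = 0.85, a description over domains of the same cells). No NUP210 peak was listed in 37 domains, and neither kind in 26.

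NUP210 covered 6 domains most, with a tie in the last place: those of Cntn5 (209 and 105 kb) and Gm20740 whole, that of 4930568E12Rik to 99.5% and those of Pkhd1l1 and Sema3d to 96.9% each. They had 21.4 (Sema3d) to 29.97 IgG reads per kb, where the median domain had 15.1. Across domains the NUP210 share rose with IgG reads per kb (r = 0.76, rho = 0.76), and for NPC and IgG r was 0.79. It fell with H3K27me3 fold over IgG (r = -0.34, rho = -0.35), but that fold divides by the IgG reads. With scaled H3K27me3 reads per kb the NUP210 share rose (r = 0.30, rho = 0.26). The IgG reads were those of the H3K27me3 list. Of 122 NUP210 and 62 NPC peaks that shared a start and end with an H3K27me3 peak, none had the same IgG read number, so these lists used other IgG libraries. The 88 domains of 8.25 to 13.8 IgG reads per kb were covered to 14.7% by NUP210, the 87 of 13.9 to 16.9 to 34.1% and the 88 of 16.9 to 32.6 to 67.7%. Peaks of 30 to 99 kb in the same IgG ranges were covered to 12.8%, 36.9% and 69.9%. At like IgG levels the covered share of domains was thus within 3 percentage points of that of narrower peaks.

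**Figure D4:**
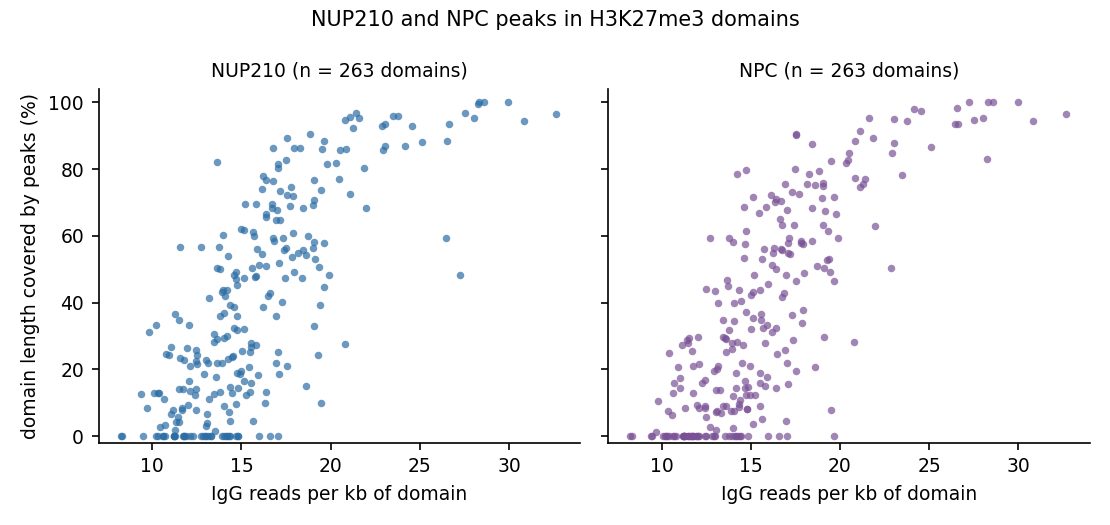
Share of each of 263 domains covered by NUP210 peaks (left) or NPC peaks (right) on the vertical axis (%), against IgG reads per kb of the domain (horizontal axis). The NUP210 share over the domain length was 14.7% in the 88 domains of lowest IgG and 67.7% in the 88 of highest IgG, and the NPC share 12.2% and 65.4%.

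The nucleoporin peaks in domains were weak. The 669 NUP210 peaks that met a domain had a median fold over IgG of 1.13, against 1.19 for the others, and 62.0% had an FDR of at most 0.05, against 69.4%. At least 2-fold were 20 of the 669 (2.99%), close to the 3.22% of the other NUP210 peaks. With such peaks alone 0.239% of the domain length was covered by NUP210 and 0.0178% by NPC, and with an FDR of at most 0.05 the shares were 25.98% and 17.03%. The 12 domains under 2-fold for H3K27me3 had NUP210 shares of 61.0% to 100%.

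H3K4me3 was rare at start sites in the domains. Of 292 genes with a TSS in a domain, in 169 domains, 22 had an H3K4me3 peak in sg-Ctrl (7.53%, 5.03 to 11.1) and 23 in KO (7.88%). Outside the domains the share in sg-Ctrl was 67.9% of 18270 genes named in any of the 6 lists. A gene can be named there through its H3K4me3 peak alone, which raises this share, so its gap to 7.53% is not a measure of the domains. The sg-Ctrl share was 7.99% for start sites in H3K27me3 peaks of 30 to 99 kb and 12.3% in narrower ones, so the low share was not particular to the domains. The 27 start sites with H3K4me3 in either library lay 4.32 to 70.6 kb inside the domain edge, with a median of 31.4 kb, and 36.4 kb was the median of the 265 without it.

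H3K4me3 at 18 genes was listed in both libraries. Mga, a MAX-binding transcription factor gene, had the most reads in sg-Ctrl, 1408, and 1046 in KO. Aldh1a1, a retinaldehyde dehydrogenase gene whose domain was covered whole in KO, had 539 and 643 reads. At Kirrel3 the reads were 426 and 2122, and at AI118078 389 and 1157, so in KO both exceeded Mga. Per kb and scaled, Aldh1a1 (423) exceeded Mga (390) in sg-Ctrl as well. Lower reads were found at 1700007G11Rik (259 and 277), D10Bwg1379e (187 and 328) and Nrep with Gm10549 (177 and 322, a shared peak). The weakest, at D130040H23Rik, had 42 and 41 reads. These pairs are raw read numbers, not divided by depth or peak length, so they do not give the direction of change. The log2 ratio of scaled reads per kb, KO to sg-Ctrl, was negative at Mga (-0.86), Aldh1a1 (-0.31), D10Bwg1379e (-0.19) and 1700007G11Rik (-0.03). It was positive at Kirrel3 (0.91), AI118078 (0.69), Nrep with Gm10549 (0.23) and D130040H23Rik (0.205).

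Per kb and scaled, the median log2 ratio of these 18 genes, with 16 distinct peaks, was 0.14 (-0.17 to 0.91), against -0.50 over all 12197 genes with peaks in both libraries. For start sites in H3K27me3 peaks of 30 to 99 kb it was -0.09, with 4.35% of 92 genes at least 2-fold higher, and in narrower peaks -0.13, with 7.59% of 158, so other start sites with H3K27me3 also lay above the median of all genes. The ratio was above 0 for 12 of the 18. At least 2-fold higher in KO were 4, whereas 0.525% of all genes were; none was 2-fold lower, against 9.66% of all genes. These 4 were Grb14, a receptor adaptor gene (log2 ratio 1.45, 73 and 505 reads), Scn2a1, a sodium channel gene (1.27, 102 and 374), Itgb8, an integrin gene (1.22, 55 and 136), and Plcl1 (1.20, 72 and 630). Their peaks were all weak in sg-Ctrl. Among all 1243 genes with fewer than 500 sg-Ctrl reads the median was -0.04 and 4.83% were at least 2-fold higher, and among the 16 of them in domains it was 0.22. The counts rested on the scaling. With libraries scaled by identical peaks the medians were 0.61 for the 18 genes and -0.03 for all, and 6 of the 18 were at least 2-fold higher and none lower, against 2.01% and 1.07% of all genes.

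**Figure D5:**
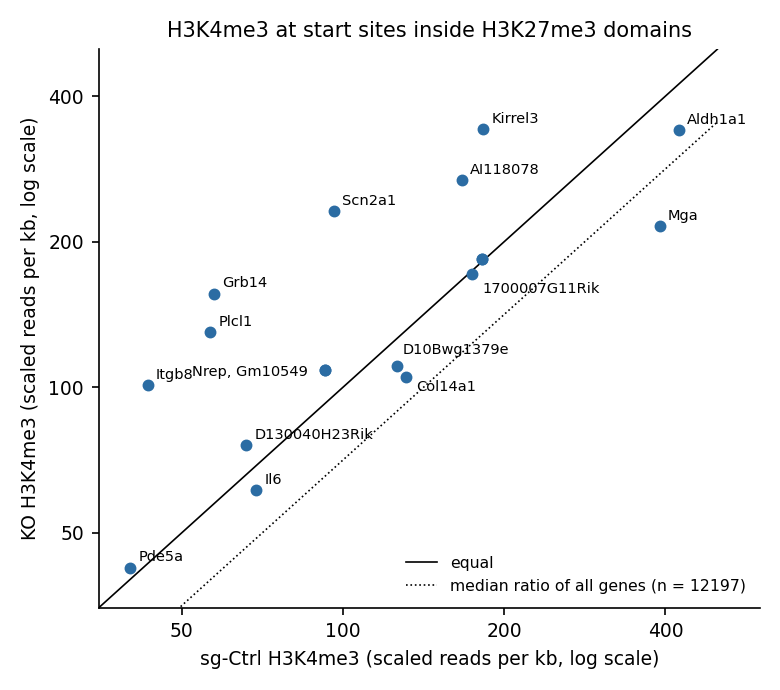
H3K4me3 at the 18 genes (16 distinct peaks) with a start site in a domain and a peak in both libraries, as scaled reads per kb in sg-Ctrl (horizontal axis, log scale) and KO (vertical axis, log scale), with 1 point left without a name. All but Mga lie above the dotted line, the median ratio of 12197 genes, and Grb14, Scn2a1, Itgb8 and Plcl1 are more than 2-fold above the solid line of equal values.

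In the domains of these 4 genes, KO H3K27me3 peaks covered 98.0% of the Grb14 domain, 99.4% of the Scn2a1 domain and 97.3% of the Itgb8 domain, with 42.1, 86.9 and 59.1 scaled H3K27me3 reads per kb in sg-Ctrl and 31.6, 75.8 and 58.2 in KO. The Plcl1 start site lies in a domain of 183 kb that was covered to 66.7%, apart from the 150 kb domain without a KO peak farther along the gene. Scaled H3K27me3 reads per kb were 66.3 over the whole 183 kb in the control. In KO the value was 76.9, but over the KO peak of 122 kb alone, so these values cover unlike lengths and show no rise over the domain. The KO values of all 4 domains are per kb of the KO peaks.

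H3K4me3 was listed in sg-Ctrl alone at 4 genes and in KO alone at 5. In sg-Ctrl alone were Slc39a8 (110 reads, 20.7-fold), Samsn1 (99 reads, 1.48-fold), Tnfaip8l3 (52 reads) and Ccdc73 (47 reads, 1.03-fold), so Samsn1 and Ccdc73 were barely over IgG. In KO alone were Lrp4, a Wnt and agrin receptor gene (245 reads), Gm4861 (129), Pclo, a presynaptic scaffold gene (111), Il20ra (95) and Camk4 (56). Camk4 and Gm4861 are genes of domains with no KO H3K27me3 peak, whereas Slc39a8, whose domain was covered to 3.48%, had no KO H3K4me3 peak. The Sele start site, also in a domain without a KO peak, had H3K4me3 in neither library.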

How the data were processed

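ChIP-seq peak lists of 4T1 cells, 1 library per condition, were analysed. The authors called peaks with SICER against IgG, with a window of 1000 bp for broad marks (H3K27me3, NUP210) and 200 bp for H3K4me3. For each peak they deposited the read count in ChIP and in IgG, the SICER p-value, the FDR and the fold enrichment, a ratio scaled by library size. The aligner is not given in the sources used here. Domains were the distinct sg-Ctrl peaks of at least 100 kb. Reads were divided by the library ratio recovered from counts and folds, since total depth is unknown. Overlap required 1 bp. Positions count from 1, and gene starts in the lists were compared with RefSeq: 14374 genes had a promoter of that name on the same chromosome of GRCm38.p6, and 90.5% of them lay within 50 bp. Shares have 95% Wilson intervals, medians have order-statistic intervals, and both cover counting error only. The members and gene lists were chosen with earlier results of these data known. Named domains were the 10 widest, the 5 most and 5 least covered in KO (ties by width), the 5 with the highest fold, the 5 most covered by NUP210, and those at the width limit. Named start sites were the 10 with most H3K4me3 reads in sg-Ctrl and up to 5 in 1 library alone. Some of the items these rules select are not reported here. Other names were chosen after their values were seen. Coverage and ratio steps were tested on simulated data. RNA-seq was not analysed here. Python 3.11.15, pandas 2.3.3, numpy 2.4.6 and scipy 1.17.1 were used.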

Additional observations from a re-analysis of the deposited data

How the results depend on the processing

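No paired analysis was possible because each ChIP condition has 1 library and the RNA-seq samples that share replicate numbers were not analysed here. Over 9 results, 46 alternatives were run, of which 12 moved the value beyond its 95% interval and 2 reversed it. For the coverage shares that interval treats each domain as a yes or no count, which a share of length is not. There it served only as a rule for the size of a shift and does not measure the spread. Counts were held to a factor of 1.5 instead: the 256 domains with a KO peak became 205 when 90% had to be covered, and the 226 with a NUP210 peak became 204 when 10% had to be. KO coverage of 89.2% became 83.6% with KO peaks of at least 2-fold, 92.8% in the gene-body part (chosen after the data were seen) and 72.3% with domains chosen in KO. NUP210 coverage became 25.98% with an FDR of at most 0.05, 0.239% with at least 2-fold peaks, 52.1% in the gene-body part and 24.2% without the domains of highest IgG reads (chosen after the data were seen). The NPC values were 17.03%, 0.0178%, 49.8% and 21.9%. The median H3K27me3 log2 ratio of -0.11 became 0.034 with scaling by shared peaks and 0.35 with domains chosen in KO, both reversed, and -0.30 for domains of at least 200 kb. The 2-fold limit removed nearly all nucleoporin peaks, since 2.99% of the NUP210 and 0.519% of the NPC peaks that met a domain reached it. The cause of the shifts was not tested. No replicate could be left out. Weak H3K4me3 peaks rest on as few as 42 reads, which limits the ratios there.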
